A study of Drosophila melanogaster with 8 samples.

Results

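The range examined was the 130 kb of chromosome arm 2L from 21800050 to 21930049 in the dm3 genome build, given as the locus of teashirt (tsh) and tiptop (tio) at band 40A. Its members were the 1 kb windows of 2L within these limits in the deposited profiles, and all 130 windows had a score, of 126378 in the whole profiles and 114670 on X, 2L, 2R, 3L, 3R and 4. H3K27me3 had been profiled by ChIP-seq in adult testes of 3-day-old Drosophila melanogaster males kept at 23 °C, from 400 testes as starting material per the labels. The 8 samples form 4 groups of 2 biological replicates: H3K27me3 in comr homozygotes with their input, and H3K27me3 in can homozygotes with theirs. The labels name neither allele. No wild-type sample was analysed here, so every value comes from a mutant. The authors deposited 1 profile per genotype. The replicates behind it cannot be separated, so there was nothing to test between them and no p-value is given. Each score is H3K27me3 divided by input, on a log or centred scale. No source used here gives its base, and scores are therefore compared by their differences, never as folds. The read depth behind a score is unknown.

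tsh and tio are paralogous zinc finger transcription factor genes of the fly. tsh is known for specifying trunk identity in the embryo together with the Hox genes and for patterning the proximal parts of appendages, and tio can substitute for much of its function. H3K27me3 is laid down by Polycomb repressive complex 2 and covers many developmental regulator genes in broad domains in tissues where they are silent. The product of comr (cookie monster) belongs to tMAC, the meiotic arrest complex of the testis, and that of can (cannonball) is a TBP-associated factor used in the testis. Both are needed to switch on the spermatocyte programme, and mutant germ cells stop as spermatocytes.

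The label and the range did not fully match. The gene table at hand follows Release 6 and not dm3, so its positions were not used and no window was assigned to a gene. In its gene order tsh comes before tio, towards the telomere, with 21 other genes between them, of which 7 are protein-coding (CG11629, CG1421, CG1428, CG31600, CG11634, CG2528 and CG31693), 13 are long non-coding RNA genes and 1 is a pseudogene. The spacing of tsh and tio in that assembly is longer than the 130 kb range. If it is the same in dm3, the range cannot hold both genes, and it is therefore described by its position. The 130 kb on its centromere side, from 21930050 to 22060049, are given beside it for that reason.

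H3K27me3 over the range stood above the rest of 2L in both mutants, with a higher mean in comr than in can. The mean score was 0.24 ± 0.04 in comr and 0.12 ± 0.04 in can (standard error over 130 windows). Over the other 21628 windows of 2L it was -0.0037 in comr and -0.0094 in can. The excess of the range over the rest of the arm was 0.24 ± 0.04 in comr and 0.13 ± 0.05 in can. These standard errors describe scatter along 1 profile, treat windows as independent and do not measure the spread between animals or libraries. Taken over 13 bins of 10 kb instead of windows, the standard error of the mean was 0.06 in both mutants.

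The elevation was a shift of many windows by a small amount. Windows of the range scored from -1.06 to 1.55 in comr, with a median of 0.23, and from -1.36 to 1.35 in can, with a median of 0.12. The SD over windows was 0.48 in comr and 0.51 in can, larger than the shift itself. On the rest of 2L the SD was 0.54 in comr and 0.53 in can. Scores above 0 were found in 88 of 130 windows (67.7%) in comr and 82 (63.1%) in can, against 49.5% and 48.9% of windows on the rest of 2L. The most strongly scored windows elsewhere on 2L reached 2.93 in comr and 3.36 in can, so the range held none of the extremes of the arm.

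Windows were called enriched when they lay in the top 10% of the 6 main sequences, at a score of at least 0.71 in comr and 0.72 in can. With ties, 10.3% of the main-sequence windows were called in comr and 10.1% in can. In the range 23 of 130 windows (17.7%) were enriched in comr and 15 (11.5%) in can, and the share over the rest of 2L was 8.9% in comr and 8.09% in can. At this threshold the count in can was thus near the background, and that in comr was above it. Shares at other thresholds, where can also exceeded the rest of 2L, are given below. Both mutants called the same window in 7 cases (5.38%), against 2.03% on the rest of 2L and 2.51% on the main sequences. This excess was lost with rows starting at each full kb, a shift of 500 bp, where 2 windows (1.53%) were enriched in both mutants against 1.83% on the rest of 2L.

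**Figure D1:**
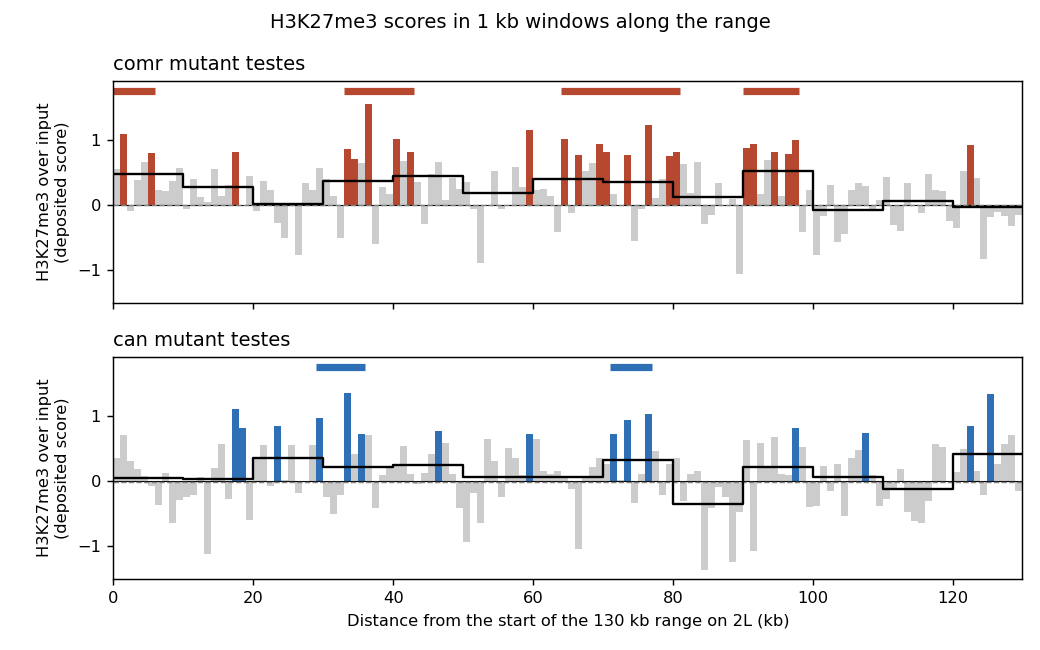
Deposited H3K27me3 over input score (vertical axis) in the 130 windows of 1 kb, by distance in kb from the start of the range, in comr (top) and can (bottom). Coloured bars are enriched windows and grey bars the others, the black step line is the mean of each 10 kb bin, the thick line at the top marks enriched stretches of at least 5 kb within the range, and the dashed line (close to 0) is the mean of the rest of 2L. Enriched windows number 23 in comr, mostly within the first 98 kb, and 15 in can.

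Joining enriched windows across gaps of at most 3 kb gave short separate stretches and no continuous domain over the range. In comr 4 stretches of at least 5 kb lay in or ran into the range and covered 41 of its 130 kb (31.5%), against 7.75% of the whole arm. In can 2 stretches covered 13 of 130 kb, against 5.86% of the arm. The longest stretch of the range measured 17 kb in comr and 7 kb in can, while the longest on 2L measured 53 kb in comr and 33 kb in can.

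The stretches of the mutants overlapped at 2 places with the windows used here. With rows starting at each full kb can had 0 stretches in the range, so neither overlap was present then, and with no gaps joined both mutants had 0. The first was a comr stretch from 21833050 to 21843049 (10 kb) beside a can stretch from 21829050 to 21836049 (7 kb). The comr stretch averaged 0.61 ± 0.18 in comr and 0.40 ± 0.15 in can, and the can stretch averaged 0.40 ± 0.18 in comr and 0.36 ± 0.26 in can. This place held the highest window of each profile in the range, 1.55 in comr at 21836050 to 21837049 and 1.35 in can at 21833050 to 21834049. These maxima lay 3 kb apart, and can scored 0.71 in the window of the comr maximum while comr scored 0.86 in that of the can maximum.

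The second place was a comr stretch from 21864050 to 21881049 (17 kb) that contained a can stretch from 21871050 to 21877049 (6 kb). The comr stretch averaged 0.48 ± 0.12 in comr and 0.18 ± 0.12 in can. Within the can stretch the means were 0.26 ± 0.26 in comr and 0.41 ± 0.23 in can, and 2 of its 6 windows were enriched in comr. The window from 21876050 to 21877049 was high in both mutants, at 1.23 in comr and 1.03 in can.

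The other comr stretches had no counterpart in can at this threshold. One, from 21794050 to 21806049 (12 kb), crossed the telomere-side edge of the range and averaged 0.59 ± 0.15 in comr and 0.46 ± 0.21 in can, with 2 enriched windows in can. The other, from 21890050 to 21898049 (8 kb), averaged 0.67 ± 0.12 in comr and 0.26 ± 0.21 in can, with 1 enriched window in can. Since each stretch was picked by high scores in the mutant that called it, its higher mean there follows in part from that choice.

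In bins of 10 kb the range was above 0 along most of its length. The bin means ran from -0.08 to 0.52 in comr, with a median of 0.27, and from -0.35 to 0.41 in can, with a median of 0.07. Of the 13 bins, 11 were above 0 in comr and 11 in can, against 47.6% and 47.1% of the 2196 bins on the rest of 2L. In the range 9 (69.2%) were above 0 in both mutants and 0 were below 0 in both. On the rest of 2L 33.5% of bins were above 0 in both and 38.8% below 0 in both.

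By the mean of both profiles the highest bin lay 90 to 100 kb from the start, with 0.52 ± 0.15 in comr and 0.22 ± 0.18 in can, and 5 enriched windows in comr against 1 in can. The bin from 40 to 50 kb had 0.44 ± 0.12 in comr and 0.24 ± 0.11 in can, and that from 70 to 80 kb had 0.36 ± 0.17 in comr and 0.32 ± 0.15 in can. The lowest bin was next to the highest, 80 to 90 kb from the start, with 0.12 ± 0.17 in comr and -0.35 ± 0.18 in can. Over the last 30 kb of the range comr was close to 0, with bin means of -0.08, 0.06 and -0.03, while can had 0.07, -0.12 and 0.41. The 9 highest bins of comr all lay in the first 100 kb, where the remaining bin, at 20 to 30 kb, had 0.01 ± 0.13.

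**Figure D2:**
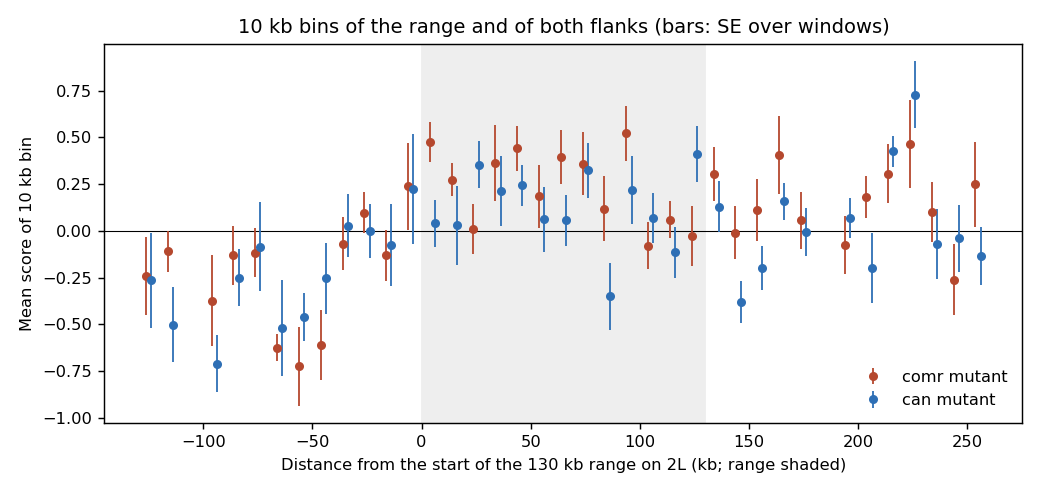
Mean score of each 10 kb bin (vertical axis; error bars are standard errors over its 1 kb windows) by distance in kb from the start of the range, in comr and can, with the range shaded. Bins with under 5 windows are not shown. In the range 9 of 13 bins are above 0 in both mutants, the telomere-side flank falls to -0.73 in comr and -0.71 in can, and a high bin of both mutants lies 220 to 230 kb from the start.

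The difference between the mutants over the range was small and uneven. comr exceeded can by 0.12 ± 0.05 (standard error over 130 windows), against a mean difference of 0.0057 on the rest of 2L. The adjoining 130 kb on the centromere side had nearly the same difference, 0.10 ± 0.06 (122 windows), and the range differed from them by 0.01 ± 0.08. With the 13 bins as units the standard error was 0.08, so the difference was 2.32 standard errors by windows but 1.53 by bins. comr was higher in 77 of 130 windows (59.2%) and in 10 of 13 bins (76.9%), against 50.1% of windows and 50.4% of bins on the rest of 2L. Because the deposited profiles were given the same overall distribution, a change in the total amount of the mark cannot be read from this difference. In a whole organ, a mark carried by more cells cannot be told apart from a stronger mark per cell.

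The largest differences ran in both directions. comr was above can by 0.47 ± 0.17 at 80 to 90 kb, where the means were 0.12 in comr and -0.35 in can and 9 of 10 windows were higher in comr. At 0 to 10 kb comr was above can by 0.43 ± 0.14, with means of 0.48 in comr and 0.04 in can and 9 of 10 windows higher in comr. comr was below can at 120 to 130 kb, by -0.44 ± 0.18, with means of -0.03 in comr and 0.41 in can. It was also below can at 20 to 30 kb, by -0.34 ± 0.13, with 0.01 in comr and 0.35 in can. These 4 bins differed by more than 2 of their standard errors, 2 in each direction. The share was 15.4% of bins in each direction, against 7.01% higher and 5.46% lower in comr on the rest of 2L.

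Single windows differed by more. In the window from 21891050 to 21892049 comr scored 0.94 and can -1.07. In that from 21866050 to 21867049 comr scored 0.76 and can -1.04. In the opposite direction, the window from 21925050 to 21926049 scored -0.19 in comr and 1.33 in can. Such differences were not particular to the range. Over windows, comr minus can had an SD of 0.58 in the range and 0.62 on the rest of 2L, where it ran from -4.33 to 3.22. Estimated from adjacent windows, the window-to-window scatter was 0.46 in comr and 0.47 in can over the range, against 0.45 and 0.47 on the rest of 2L.

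Agreement between the profiles along the range was weak. Across the 130 windows comr and can correlated at r = 0.32, against 0.33 across the rest of 2L. Across bins of 5 kb r was 0.20 (n = 26) in the range and 0.59 on the rest of the arm, and across bins of 10 kb it was 0.09 (n = 13) and 0.67. Bin means spread less within the range, with an SD of 0.21 in comr and 0.21 in can, than over the rest of the arm, with 0.30 and 0.25. The difference comr minus can spread more over bins of the range, with an SD of 0.28 against 0.23. The SDs over the arm also take in differences between its regions, and SDs within other stretches of 130 kb were not computed. Within the other 168 stretches of 130 kb along 2L, r over 10 kb bins ran from -0.43 to 0.91 with a median of 0.48, and it was lower than in the range in 19 of them. The bins are not replicates, are few, and share the libraries and the normalization, so these correlations are descriptions.

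The range exceeded the sequence next to the centromere and the remainder of its own Mb by more than it exceeded the arm as a whole, but not the 130 kb adjoining it on the centromere side, which are described with the flanks. The mapped 2L sequence from 22000050 to 22857049, next to the centromere, averaged -0.19 ± 0.02 in comr and -0.17 ± 0.02 in can (standard error over 722 windows). The excess of the range over this sequence was 0.43 ± 0.05 in comr and 0.29 ± 0.05 in can. Enriched windows made up 6.93% of it in comr and 5.54% in can. The remaining windows of the Mb that holds the range, 21 to 22 Mb, averaged -0.27 ± 0.02 in comr and -0.22 ± 0.02 in can (691 windows), which put the range higher by 0.51 ± 0.05 in comr and 0.34 ± 0.05 in can. Pericentric sequence is repeat-rich, and scores were present for 722 of the 857 kb next to the centromere, against 130 of 130 in the range. The part of this difference in coverage in the result was not tested.

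The flanks differed from each other. The telomere-side flank, 130 kb long, averaged -0.23 ± 0.05 in comr and -0.23 ± 0.06 in can (121 windows), and its bins at 50 to 60 kb before the range had -0.73 ± 0.21 in comr and -0.46 ± 0.13 in can. The level was higher in the last 10 kb before the range, with 0.24 ± 0.23 in comr and 0.22 ± 0.29 in can. The range exceeded this flank by 0.47 ± 0.07 in comr and 0.35 ± 0.07 in can. The centromere-side flank averaged 0.14 ± 0.05 in comr and 0.04 ± 0.05 in can (122 windows), and the range exceeded it by 0.09 ± 0.07 in comr and 0.08 ± 0.06 in can, less than 2 standard errors in each. Enriched windows made up 17.2% of that flank in comr and 8.2% in can, against 4.13% and 4.96% of the telomere-side flank. In can this flank was thus near the rest of 2L in both measures. Its 10 kb bins ran from -0.26 to 0.47 in comr and from -0.38 to 0.73 in can.

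**Figure D3:**
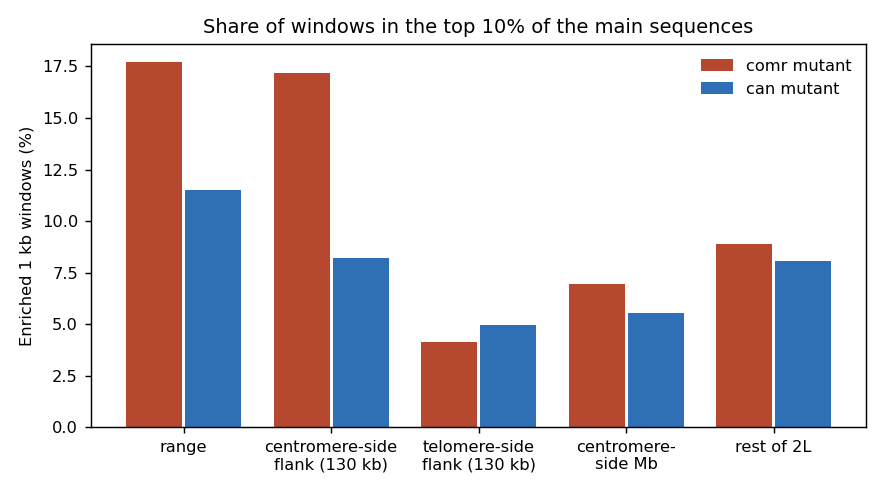
Share of 1 kb windows (percent, vertical axis) that lie in the top 10% of the main sequences, in comr and can, for the range, its flanks of 130 kb, the mapped sequence of 2L beyond 22 Mb and the rest of 2L. Bars are single shares without error. comr has 17.7% in the range and 17.2% in the centromere-side flank against 8.9% on the rest of 2L, and can has 11.5% and 8.2% against 8.09%.

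The centromere-side flank overlaps the sequence from 22000050 on, and the overlap held a stretch that was higher in both mutants than any in the range. It was called from 22016050 to 22024049 (8 kb) in comr and from 22017050 to 22023049 (6 kb) in can. The comr stretch averaged 0.84 ± 0.22 in comr and 0.81 ± 0.21 in can, and the can stretch 0.70 ± 0.27 in comr and 1.002 ± 0.221 in can. Of the 8 windows of the comr stretch 6 were enriched in comr and 5 in can. The 10 kb bin that holds most of it, 220 to 230 kb from the start of the range, had 0.47 ± 0.24 in comr and 0.73 ± 0.18 in can. This stretch was chosen after its values were seen, and without an annotation of dm3 it was not given a gene name.

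Among stretches of 130 kb laid along 2L, the range was high and not extreme. It ranked 24 of 169 in comr and 37 of 169 in can, counted from the highest mean, and 19 of 169 for comr minus can. In 22 of the other 168 stretches both mutants scored above the range. The other stretches had means from -0.68 to 0.49 in comr, with a median of -0.03, and from -0.47 to 0.39 in can, with a median of -0.01. Their SD was 0.20 in comr and 0.16 in can.

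**Figure D4:**
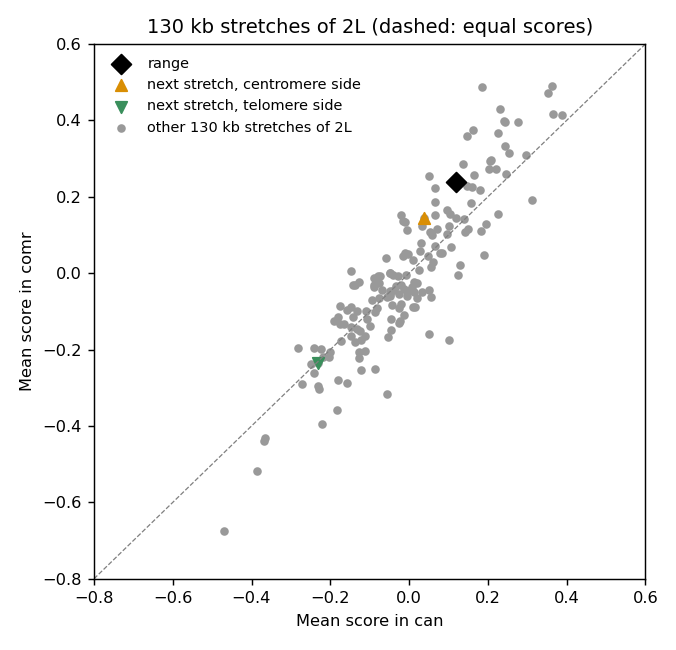
Mean score in comr (vertical axis) against mean score in can (horizontal axis) of 169 stretches of 130 kb along 2L, each with at least 100 windows, and a dashed line of equal scores. The range (diamond) is at 0.24 in comr and 0.12 in can, the next stretch on the centromere side at 0.14 and 0.04, and the next on the telomere side at -0.23 in both.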

How the data were processed

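Per the labels' protocols, ChIP and input DNA went through a kit for small amounts of chromatin and was sequenced on a MiSeq. Per the file headers, the deposited score divides H3K27me3 by input in 1000 bp bins, with a later step named QN. The profiles held identical sorted scores. Per the submitters' processing notes, positions are in dm3. The sources used here give no aligner, read filter or way of combining replicates. Rows numbered 1263776 per profile, 100 bp apart. Rows starting 500 bp into each kb served as 1 kb windows, each taken as centred on its row. Rows overlap their neighbours, but the windows picked in this way adjoin without overlap. Standard errors are nominal because they treat windows along 1 profile as independent.

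The sequence next to the centromere was taken from 22000050 on, so that it excludes the range. Enriched windows were the top 10% on X, 2L, 2R, 3L, 3R and 4, joined across at most 3 kb into stretches of at least 5 kb. Bins of 10 kb needed 5 windows, and stretches of 130 kb needed 100. The named bins were the highest and the lowest by the mean of both profiles and, in each direction, the 2 that differed most between mutants, with every enriched stretch of the range. Further bins, single windows and the flanks were chosen after their values were seen. The range and its comparisons were chosen with earlier results of these data known. The mean excess and the joining of windows into stretches were tested on simulated data with independent noise, and the other calculations were not. The tolerance allowed for the mean excess was wider than the excess in can and the difference between mutants. Python 3.11.15 was used with numpy 2.4.6, pandas 2.3.3, scipy 1.17.1 and matplotlib 3.10.9. Alternatives covered the rows, the limits of the range, thresholds, gaps and bin sizes. No sequence of the genes is printed.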

Additional observations from a re-analysis of the deposited data

How the results depend on the processing

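No paired analysis was possible because each deposited profile already combines both replicates, and no replicate could be left out for the same reason. The mean scores, the excesses and the difference between mutants kept their sign and moved by less than 1 standard error under each alternative of rows, limits, median and region compared. Leaving out each 10 kb bin in turn gave means of 0.214 to 0.264 in comr and 0.0953 to 0.159 in can and a difference of 0.089 to 0.165. The alternative without the highest bin and the bins left out in turn were added after the data were seen. The rank was 22 and 23 in comr, against 24, and 37 and 36 in can, against 37.

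Counts of enriched windows (23 in comr, 15 in can, 7 in both) were 9, 6 and 1 at the top 5% and 41, 36 and 16 at the top 20%. At the top 5% the shares in comr, can and both were 6.92%, 4.62% and 0.769%, against 4.11%, 3.53% and 0.624% on the rest of 2L. At the top 20% they were 31.5%, 27.7% and 12.3%, against 18.6%, 17.9% and 6.23%. With the top 10% of 2L alone 25, 21 and 10 windows were called, or 19.2%, 16.2% and 7.69%, against 10.2%, 10.1% and 2.62%. With rows starting at each full kb 2 windows (1.53%) were enriched in both, against 1.83%. Stretches were the least stable. In comr, 4 stretches of 41 kb became 1 of 5 kb at the top 5%, covered 62 kb at the top 20% and numbered 0, with 0 kb, with no gaps joined. In can, 2 stretches of 13 kb became 1 of 5 kb at the top 5% and 6 of 60 kb at the top 20%. They covered 22 kb with the top 10% of 2L alone and 25 kb with gaps of up to 5 kb joined, and numbered 0, with 0 kb, with no gaps joined and with rows starting at each full kb. Stricter thresholds and shorter gaps lower such counts by construction, and the cause of the change with other rows was not tested. The correlation of comr and can along the range (0.317 in windows) was 0.204 in 5 kb bins, 0.0882 in 10 kb bins and 0.202 with rows starting at each full kb. Unknown depth, the lack of separate replicates and the lack of a dm3 annotation limit each of these values.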

Other observations

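The highest stretches of 130 kb on 2L by the mean of both profiles lay far from the range. The stretch from 3470050 to 3600049 averaged 0.49 in comr and 0.36 in can, that from 870050 to 1000049 averaged 0.47 in comr and 0.35 in can, and that from 610050 to 740049 averaged 0.41 in comr and 0.39 in can. They were picked after their values were seen and were not given gene names.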
